A study of Caenorhabditis elegans with 6 samples.

Results

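The genes described here are 9 GATA factor genes of *Caenorhabditis elegans* that act in the endoderm or the epidermis, namely *med-1*, *end-1*, *end-3*, *elt-2*, *elt-7*, *elt-1*, *elt-3*, *egl-18* and *elt-6*. They were chosen by name, with earlier results of these data known. A gene's value was taken from probe sets whose platform annotation names that gene alone. All 9 had such a probe set, among 17118 genes in all, and together they had 13 probe sets. Where a gene had more than 1, the one with the highest mean over the arrays gave the main value and the other is given beside it.

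RNA of fed L1 larvae (the first larval stage) was set against RNA of embryos of mixed age, both of the wild-type strain N2, with 3 Affymetrix arrays per stage. Per the labels, the larvae hatched for 24 h in M9 buffer at 20 °C and were then fed HB101 *E. coli* at 10 mg/mL for 3 h in S medium, at 10 worms per µL. The embryos came from bleached gravid adults raised on agar plates with the same bacteria. The titles of the 3 embryo samples also carry XX and a shared code, and those of the L1 samples carry neither. The embryo arrays had been used in an earlier series and were analysed anew for this one, so array set, stage, hatching in buffer and feeding cannot be told apart.

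GATA factors are zinc finger transcription factors named after the DNA letters they bind. In the worm, maternal SKN-1 switches on the *med* genes in the blastomere that founds endoderm and part of the mesoderm, the *med* genes act on *end-1* and *end-3* in the endoderm founder cell, and these pass control to *elt-2* and *elt-7*, which keep the intestine differentiated. In the other branch *elt-1* specifies the epidermis, *elt-3* acts in differentiating epidermal cells, and the neighbours *egl-18* and *elt-6* act in the seam cells, the lateral epidermal cells that divide like stem cells.

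Values are RMA expression values on the log2 scale, and a difference is always fed L1 minus mixed embryo, with limma's moderated standard error (SE). A gene passed at a Benjamini-Hochberg adjusted p under 0.05 over all genes tested with limma. No label says that the replicates were grown separately, so the p-values cover the spread among these samples, part or all of which may be technical. The array carries 32 probe sets for transcripts of bacteria and yeast. Their highest value, 5.43, served as background and is called the foreign control level below. Array medians were 6.08 to 6.11 in L1 and 6.01 to 6.04 in embryos, arrays of 1 stage correlated at r = 0.9925 to 0.9967 over the probe sets, which are not independent of each other, and the number of arrays limits the precision.

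Of the 9 genes, 4 fell in L1 (*end-1*, *elt-1*, *egl-18* and *end-3*), 3 rose (*elt-2*, *med-1* and *elt-3*) and 2 did not pass (*elt-6* and *elt-7*). Of all 17118 genes, 64.4% passed with limma, 33.2% higher and 31.2% lower in L1, so that 7 passing genes of 9 is a share near that of all genes. These 17118 include 5473 genes at or under the foreign control level on all arrays, *med-1* among them. With such genes left out, 4763 genes rose and 5041 fell, and of the GATA factors 2 rose and 4 fell. A difference of at least 1 on the log2 scale was found for 4 of the 9, against 34.4% of all genes. The L1 arrays all lay on 1 side of the embryo arrays for 7 of the 9, against 70.6% of all genes. The median difference was -0.18 over the 9 genes and 0.05 over all genes. In whole animals and embryos, fewer cells of a type and less RNA per cell cannot be told apart.

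**Figure D1:**
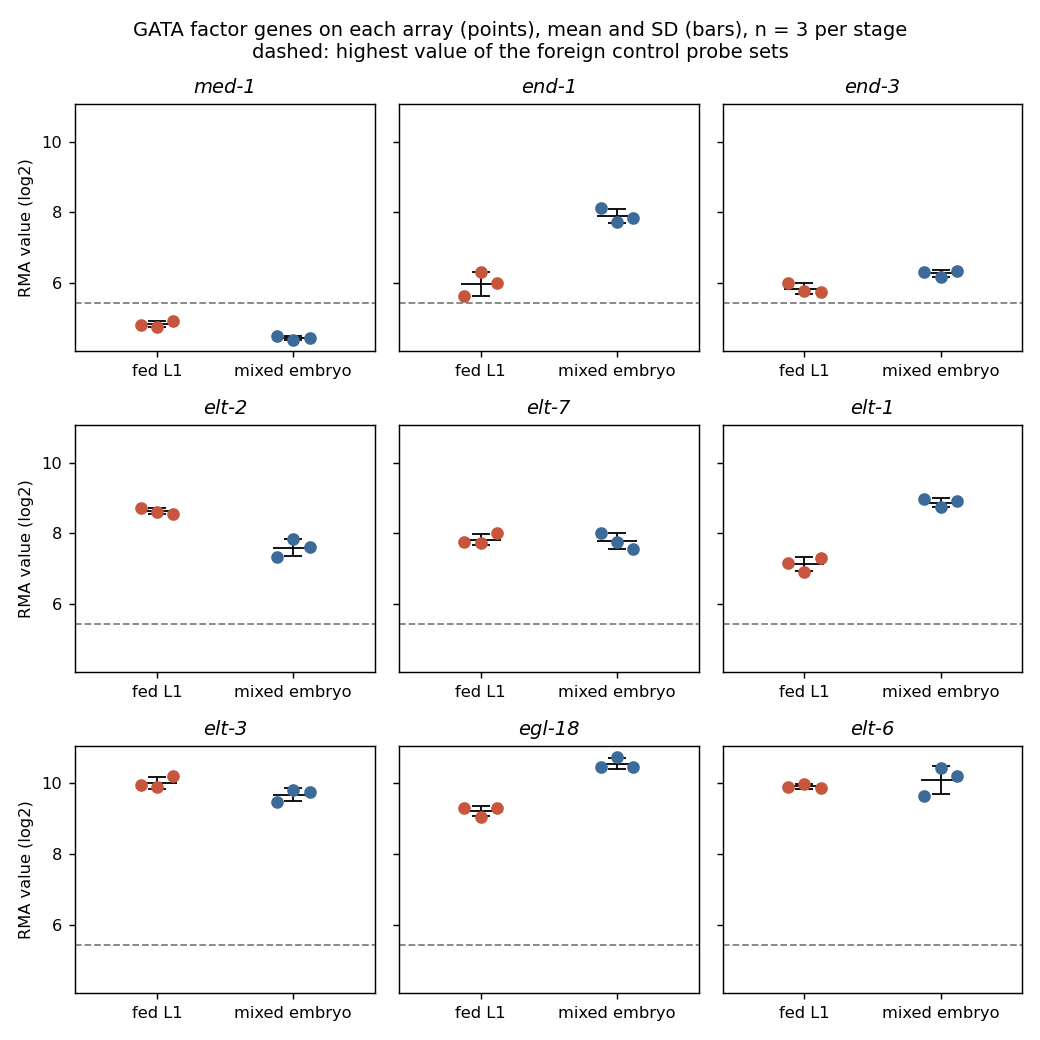
RMA value (log2, vertical axis) of each GATA factor gene on the 3 fed L1 arrays and the 3 mixed embryo arrays; points are arrays, bars are the mean and SD, and the dashed line is the foreign control level of 5.43. The stages lie far apart for *end-1*, *elt-1*, *egl-18* and *elt-2*, they overlap for *elt-7* and *elt-6*, and *med-1* lies under the dashed line on every array.

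Both endoderm founder genes fell in L1. *end-1*, which commits the endoderm founder cell to its fate, had values of 5.63, 6.30 and 6.01 in L1, against 8.13, 7.73 and 7.84 in embryos. Every L1 array lay over 1 log2 unit below every embryo array, and the L1 values came close to the foreign control level without reaching it. The difference was -1.92 (SE 0.17, n = 3 per stage), a level 3.79-fold lower in L1, with a limma adjusted p of 2.09e-06. Among the main probe sets of the 9 genes this was the largest fall, and the other probe set of *egl-18* had a larger one (-2.64).

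*end-3*, which acts beside *end-1* and slightly before it, had values of 6.01, 5.76 and 5.74 in L1, against 6.32, 6.16 and 6.35 in embryos. The stages did not overlap, but the lowest embryo array and the highest L1 array were close, and the embryo values were near the foreign control level too. It fell by 0.44 (SE 0.10, limma adjusted p = 0.00351), a 1.36-fold difference. RMA compresses low values, so a small difference near background may understate the change in RNA. In the WBcel235 annotation *end-1* and *end-3* lie on chromosome V with 4 protein-coding genes between them.

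*med-1*, the GATA factor gene that acts upstream of the *end* genes, had values of 4.82, 4.75 and 4.93 in L1, against 4.49, 4.39 and 4.44 in embryos. All of these are under the foreign control level, so no RNA of *med-1* was detectable above background at either stage and no fold is given. The stages did not overlap, and limma gave a difference of 0.39 (SE 0.09, adjusted p = 0.0025). For the foreign control probe sets, the difference between the stages had a median of 0.06 and ran from -0.10 to 0.26, and *med-1* lay outside that range. Those are only 32 probe sets, while 5473 genes were at or under the foreign control level on all arrays. Whether *med-1* stands out among these genes was not tested. After centring arrays on the ribosomal protein genes the difference of *med-1* was 0.04 and did not pass. The sister gene *med-2*, which is nearly identical in sequence, was not analysed here, and whether the probe set also reads it was not tested.

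Of the 2 GATA factor genes of the differentiated intestine, *elt-2* passed and *elt-7* did not. *elt-2*, the main regulator of the intestine from embryo to adult, had values of 8.73, 8.60 and 8.54 in L1, against 7.34, 7.83 and 7.61 in embryos. All L1 arrays were higher than all embryo arrays, and embryo array A was the lowest. The difference was 1.03 (SE 0.13, limma adjusted p = 3.21e-05), a level 2.04-fold higher in L1. The other probe set of *elt-2* gave 6.41, 6.67 and 6.66 in L1, against 6.24, 6.35 and 6.34 in embryos, which also did not overlap. In the fit over all probe sets it rose by 0.27 (SE 0.10, limma adjusted p = 0.0366), so that the direction is shared and the size is not. Its values were lower than those of the main probe set, and RMA compresses low values. The part of this in the smaller size was not tested.

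*elt-7*, which acts alongside *elt-2* in intestinal differentiation, had values of 7.74, 7.72 and 8.00 in L1, against 8.00, 7.76 and 7.56 in embryos. The arrays of the stages lay in the same range, with embryo C the lowest and L1 replicate 3 the highest. The difference was 0.04 (SE 0.13), with a 95% confidence interval of -0.24 to 0.33 and a limma adjusted p of 0.792. Its sign turned when the arrays were centred on their medians (-0.023) or on the ribosomal protein genes (-0.31), and neither passed. A rise of the size seen for the main probe set of *elt-2* lies outside the interval, and that of its other probe set lies inside.

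Among the epidermal genes, *elt-1*, which commits cells to the epidermal fate and lies upstream of *elt-3*, had values of 7.16, 6.91 and 7.29 in L1, against 8.96, 8.73 and 8.90 in embryos. The stages were separated by over 1 log2 unit. The difference was -1.74 (SE 0.12, limma adjusted p = 2.55e-07), a level 3.35-fold lower in L1. Its single probe set has a design that allows matches to related sequences, and no other probe set can be set beside it.

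*elt-3*, a gene of differentiating epidermal cells other than the seam, had values of 9.97, 9.89 and 10.22 in L1, against 9.47, 9.81 and 9.75 in embryos. The lowest L1 array and the highest embryo array were close. It rose by 0.35 (SE 0.12, limma adjusted p = 0.0299), a 1.27-fold difference. The call was lost without embryo array A (0.24, adjusted p = 0.0904), without L1 replicate 3 (0.25, adjusted p = 0.123), without L1 replicate 1 (0.37, adjusted p = 0.0553) and with median centring (0.28, adjusted p = 0.0702). With ribosomal protein centring the difference was -0.0071. The other probe set of *elt-3* gave 8.52, 8.38 and 8.52 in L1, against 7.57, 8.03 and 7.82 in embryos, and rose by 0.67 (SE 0.12, limma adjusted p = 0.000711).

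The seam cell genes *egl-18* and *elt-6* are next to each other on chromosome IV, with 0 protein-coding genes between them; *egl-18* passed and *elt-6* did not. *egl-18*, which keeps seam cells from joining the epidermal syncytium, had values of 9.29, 9.05 and 9.31 in L1, against 10.48, 10.75 and 10.46 in embryos. All L1 arrays were over 1 log2 unit below all embryo arrays. The difference was -1.34 (SE 0.11, limma adjusted p = 1.92e-06), a level 2.54-fold lower in L1. This probe set allows matches to related sequences.

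The other probe set of *egl-18* does not, and it gave 6.53, 5.61 and 5.93 in L1, against 8.88, 8.67 and 8.45 in embryos. L1 replicate 1 stood above the other L1 arrays, and all were far below the embryo arrays. It fell by 2.64 (SE 0.21, limma adjusted p = 1.47e-06), a 6.24-fold difference. *egl-18* was the only one of the 4 genes with a pair of probe sets in which they lay over 1 log2 unit apart, and in none of the 4 did their signs differ.

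*elt-6*, which overlaps with *egl-18* in function, had values of 9.89, 9.99 and 9.86 in L1, against 9.65, 10.43 and 10.22 in embryos. Embryo array A lay below all L1 arrays while embryo arrays B and C lay above them. The difference was -0.18 (SE 0.17), with a 95% confidence interval of -0.57 to 0.20 and a limma adjusted p of 0.382. Without embryo array A it was -0.41 with a limma adjusted p of 0.00469, and with ribosomal protein centring it was -0.54 with an adjusted p of 0.00937. The other probe set of *elt-6* gave 8.28, 8.10 and 8.24 in L1, against 8.37, 8.54 and 8.42 in embryos. These did not overlap, and the probe set fell by 0.24 (SE 0.09) with a limma adjusted p of 0.0495, just under the threshold.

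**Figure D2:**
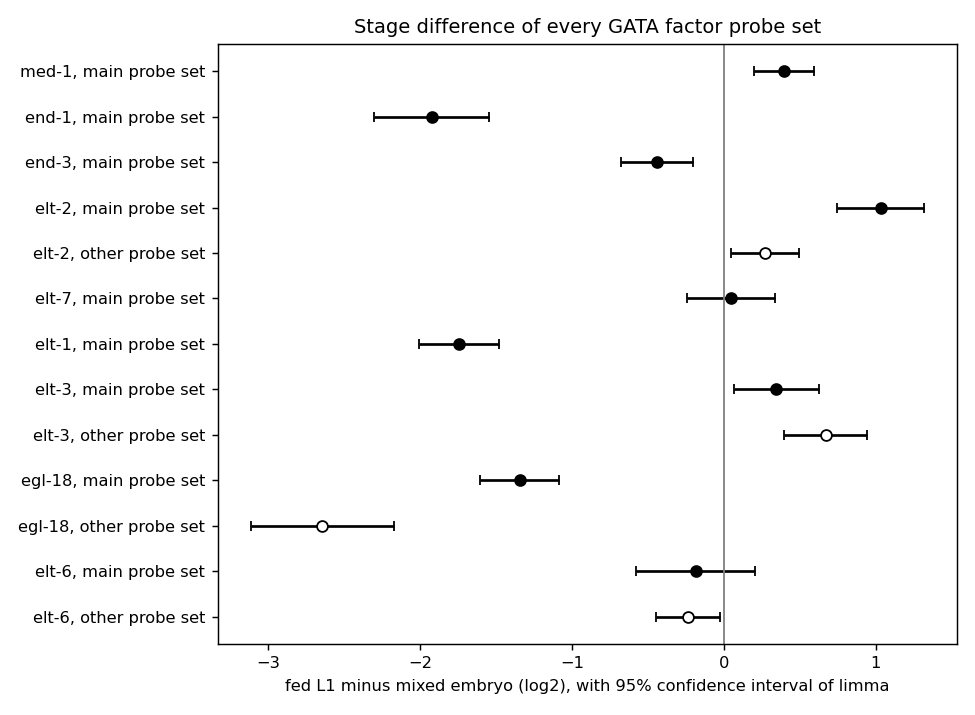
Difference of fed L1 minus mixed embryo (log2, horizontal axis) for all 13 probe sets of the 9 genes, with the 95% confidence interval from limma over all probe sets; filled points are the main probe set of a gene and open points the other one. Both probe sets of a gene lie on the same side of 0, and they lie furthest apart for *egl-18* (-1.34 and -2.64).

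In the order of the differences, the intervals of neighbours overlapped at the low end. *end-1* (-2.29 to -1.55), *elt-1* (-2.0 to -1.48) and *egl-18* (-1.60 to -1.09) each overlapped with the next in that order. *end-3* (-0.67 to -0.21) was set apart from *egl-18*, and it overlapped with *elt-6*. At the high end, *elt-7* (-0.24 to 0.33), *elt-3* (0.07 to 0.62) and *med-1* (0.20 to 0.59) overlapped with each other, and *elt-2* (0.75 to 1.31) with none of them. These are intervals of each gene's own difference and were not tests between genes.

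Within 3 pairs of related genes the stage difference itself was compared, from the difference between both genes on each array, with n = 3 per stage. Only the change of that value between the stages is given, since levels of different probe sets cannot be set against each other. The stage difference of *end-1* minus that of *end-3* was -1.48 (SE 0.29). That of *elt-2* minus that of *elt-7* was 0.99 (SE 0.27), and that of *egl-18* minus that of *elt-6* was -1.16 (SE 0.22). The stages did not overlap in any of the 3 pairs. The 2-sided exact permutation test gave p = 0.1 for each, which is the smallest that 3 arrays against 3 allow, and also 0.1 after adjustment over the 3 pairs, so no pair passed the threshold.

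Embryo array A, without which the calls of *elt-3* and *elt-6* changed, was the lowest embryo array for 3 of the 9 genes (*elt-2*, *elt-3* and *elt-6*) and the highest for 4 (*med-1*, *end-1*, *elt-1* and *elt-7*). Over all genes it was the lowest for 7038 and the highest for 5693 of 17118, so the counts among the 9 are near those of all genes. It was the lowest embryo array for 6 of 7 intestine marker genes and the highest for 5 of 7 markers of germline and early embryo. The part of this array in the differences above is given by the values without it, and a difference in embryo age between arrays was not tested.

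The labels of the samples were set against marker genes. Summed over 7 intestine markers, levels were 14.38 to 14.45 in L1 and 11.84 to 12.12 in embryos, and 0 of the 7 were at the foreign control level on all arrays of a stage. The sums are of unlogged levels, so the highest gene counts most. Among the intestine markers this was *asp-1*, with means of 13.53 in L1 and 11.02 in embryos, and all 7 rose. Summed over 6 epidermal markers they were 10.68 to 11.02 in L1 and 12.19 to 12.59 in embryos, with 2 of them at or below background on all L1 arrays (*dpy-7* and the adult collagen gene *bli-1*) and 1 on all embryo arrays (*bli-1*). Over 7 markers of germline and early embryo they were 9.02 to 9.13 in L1 and 13.79 to 13.97 in embryos. Genes that would mark carry-over from mothers (6 measured, 8.10 to 8.28 in L1 and 8.48 to 8.78 in embryos) and sperm (6 measured, 7.83 to 7.97 in L1 and 7.55 to 7.73 in embryos) had 3 and 2 of them at or under the foreign control level on all L1 arrays and 3 and 4 on all embryo arrays. Of the first, the oocyte yolk receptor gene *rme-2* lay above it, with values of 6.87, 6.67 and 6.90 in L1, against 7.68, 7.96 and 7.89 in embryos (difference -1.03, limma adjusted p = 9.28e-06). The part of tissue make-up in the differences of the GATA factor genes was not tested.

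Most listed genes of endomesoderm specification were lower in L1. This list and those below were drawn up with earlier results of these data known. The endomesoderm list holds genes that act upstream of the endoderm GATA factors and *tbx-35* and *ceh-51*, which act on the mesoderm side. Of its 15 genes, 12 fell, 1 rose and 2 missed the threshold, where 31.2% of all genes fell and 33.2% rose. The median difference was -1.83, against 0.05 over all genes. The Wnt ligand gene *mom-2*, which signals to the endoderm founder's mother cell, had values of 5.83, 5.57 and 5.79 in L1, against 9.76, 9.30 and 9.47 in embryos, and fell by 3.78 (SE 0.13). *sys-1*, which encodes a beta-catenin that acts with POP-1, fell by 3.20 (SE 0.09), and the homeobox gene *pal-1*, which adds to endoderm activation and specifies posterior fates, fell by 3.13 (SE 0.10).

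*pop-1*, which encodes the TCF factor that separates endoderm from mesoderm fate, fell by 1.56 (SE 0.17). *skn-1*, whose product activates the *med* genes, rose by 0.44 (SE 0.14, limma adjusted p = 0.0167), with values of 9.98, 10.06 and 10.40 in L1, against 9.60, 9.57 and 9.94 in embryos. This call was lost without L1 replicate 3 (0.31, adjusted p = 0.0725), without embryo array B (0.37, adjusted p = 0.0585) and after ribosomal protein centring (0.09, adjusted p = 0.57). On the mesoderm side, *ceh-51* had values of 4.39, 4.44 and 4.49 in L1, under the foreign control level, against 6.60, 5.87 and 6.33 in embryos. It was at least 1.79-fold lower in L1 (fitted difference -1.83, limma adjusted p = 2.17e-06). *tbx-35* was at or under that level on all arrays.

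Genes of the differentiated intestine that carry GATA sites or depend on ELT-2 were mostly higher in L1. They include all 7 intestine markers above, so this list and the marker sum are not separate results. Of 18 measured, limma had 15 rising, 0 falling (0 also at an unadjusted p under 0.05) and 3 that missed the threshold. Of all genes, 33.2% rose and 31.2% fell. The median difference of the list was 2.50, against 0.05 over all genes. Summed markers of muscle and of neurons were higher in L1 too, while those of the epidermis and the germline were lower. The sum over 4 body wall muscle markers was 13.40 to 13.42 in L1 and 11.56 to 11.91 in embryos, with 3 rising (*unc-54*, a muscle myosin gene, by 2.77), 1 falling and 0 at the foreign control level on all arrays of a stage. The sum over 5 neuron markers was 13.74 to 13.81 in L1 and 12.10 to 12.24 in embryos. Of these markers 3 rose (*egl-3*, a neuropeptide processing gene, by 5.18), 1 fell and 1 did not pass (*snb-1*). The 3 rises include *unc-31* (0.23, limma adjusted p = 0.0463), which was at or under the foreign control level on all arrays. In L1 the neuron sum mostly reflects *egl-3*, with values of 13.25, 13.15 and 13.16, against 7.91, 7.95 and 8.17 in embryos. The median difference of the neuron markers was 0.23. The part of muscle and neurons in the intestine result was not tested. The protease gene *cpr-1* had values of 13.18, 13.19 and 13.18 in L1, against 5.79, 6.04 and 5.80 in embryos, and rose by 7.31 (SE 0.09). The metallothionein gene *mtl-2* rose by 3.88 (SE 0.10), and *itr-1*, which encodes the inositol trisphosphate receptor of the intestinal calcium wave, rose by 3.72 (SE 0.10).

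*ges-1*, the gut esterase gene whose control by GATA sites is well known, had values of 8.90, 8.95 and 8.995 in L1, against 6.42, 6.57 and 6.61 in embryos, and rose by 2.41 (SE 0.09). The smallest rise that passed was that of *cpr-6*, by 1.26 (SE 0.11). The members that did not pass were the yolk protein genes *vit-2* (0.05) and *vit-6* (0.21), which the adult intestine makes, and *erm-1* (-0.02), a gene of the apical membrane that other epithelia use too. After ribosomal protein centring the counts were 15 higher and 2 lower.

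**Figure D3:**
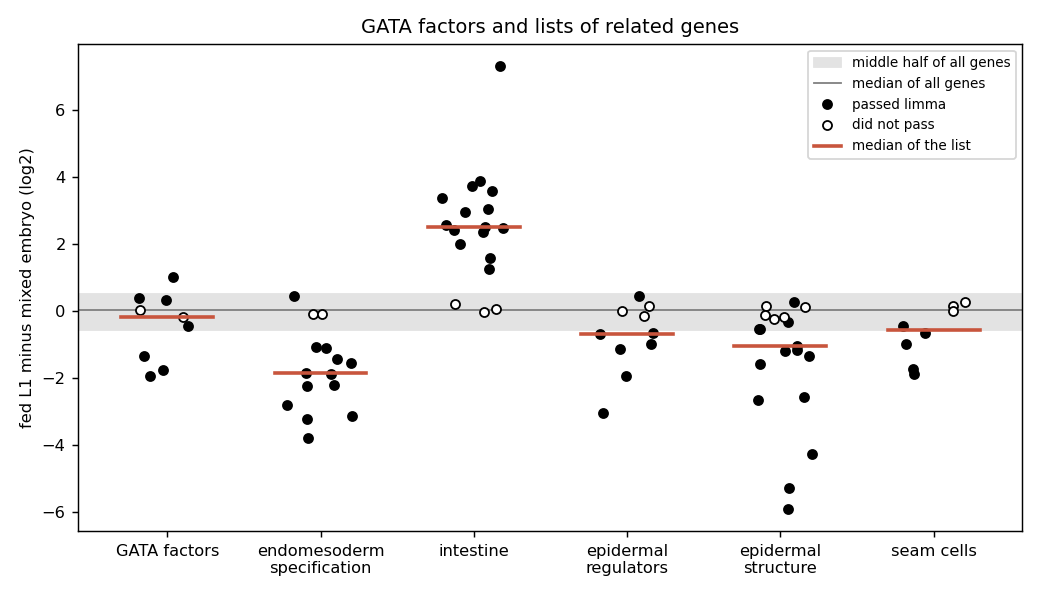
Difference of fed L1 minus mixed embryo (log2, vertical axis) for the 9 GATA factors and 5 lists of related genes; each point is a gene, filled where it passed limma, the red line is the list's median, and the band and grey line are the 25th to 75th percentile (-0.56 to 0.51) and the median (0.05) of all genes. The intestine list has a median of 2.50, the endomesoderm list of -1.83 and the GATA factors of -0.18.

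Among listed genes of the epidermis, falls in L1 outnumbered rises. The epidermal regulators and structure genes together include all 6 epidermal markers above, so these lists and the marker sum are not separate results. Of 10 measured epidermal regulators, 6 fell, 1 rose and 3 missed the threshold. The share that passed was near the 64.4% of all genes, where 31.2% fell and 33.2% rose. The median difference was -0.67, against 0.05 over all genes. The nuclear receptor gene *nhr-23*, which drives moulting, had values of 5.90, 5.89 and 5.65 in L1, against 8.72, 8.90 and 8.94 in embryos, and fell by 3.04 (SE 0.11). *blmp-1*, a zinc finger gene of epidermal timing, fell by 1.92 (SE 0.10), and *lin-26*, which keeps epidermal cells from taking on neuronal fates, fell by 1.12 (SE 0.20). *lin-29*, a late-acting gene of the larval-to-adult switch, rose by 0.44 (SE 0.12), with embryo values no higher than the foreign control level, so that it was at least 1.20-fold higher in L1. After ribosomal protein centring it differed by 0.09 and did not pass.

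Of 19 epidermal structure genes, 13 fell, 1 rose and 5 missed the threshold, where 31.2% of all genes fell and 33.2% rose. The median difference was -1.04, against 0.05 over all genes. The zona pellucida domain genes of the apical matrix *noah-2* and *noah-1* had differences of -5.91 (SE 0.12) and -4.27 (SE 0.09) and passed. The collagen gene *dpy-7*, whose promoter carries a GATA site, had values of 5.16, 5.29 and 5.41 in L1, all under the foreign control level, against 10.54, 10.78 and 10.40 in embryos. It was at least 35.3-fold lower in L1 (fitted difference -5.29, limma adjusted p = 1.43e-10). *vab-19*, which anchors epidermal attachments, rose by 0.27 (SE 0.10, limma adjusted p = 0.0313), a call that was lost under all 3 other scalings, with the mean of its probe sets and when any of 4 arrays was left out. Its sign turned after ribosomal protein centring (-0.08). The fall of *vab-10* (-1.20), also an epidermal marker, was lost without probe sets that may match related sequences (-0.097, limma adjusted p = 0.358).

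Of 8 measured genes of the seam cells, some of which are also in the other lists, limma had 5 falling, 0 rising (0 also at an unadjusted p under 0.05) and 3 that missed the threshold. The median difference was -0.55, against 0.05 over all genes. Of all genes, 64.4% passed and 31.2% fell, so that 5 passing genes of 8 is a share near that of all genes. The measured seam genes include *ceh-16*, the engrailed gene that acts with these GATA factors in the embryonic seam. It had values of 7.07, 7.07 and 6.78 in L1, against 7.74, 8.17 and 7.94 in embryos, and fell by 0.98 (SE 0.13). The largest falls were those of *apr-1*, an APC-related gene of Wnt signalling, by 1.88 (SE 0.09), and *cki-1*, a cell cycle inhibitor gene, by 1.71 (SE 0.15). *rnt-1*, the RUNX gene of seam cell division, differed by 0.16 and did not pass. Of the falls, that of *lin-28* (-0.46, limma adjusted p = 0.0454) had overlapping arrays. Its call was lost with quantile normalization, with the mean of its probe sets (-0.045) and without probe sets that may match related sequences. It was also lost without L1 replicate 1 or 3 and without embryo array B or C. The fall of *nhr-25* (-0.65) was lost without L1 replicate 2.

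For the 6 passing GATA factors above the foreign control level, which leaves out *med-1*, the genes with the most similar pattern were searched among 10387 others with a gene class name, as the lowest mean absolute difference of values centred on the gene's mean over the 6 arrays. For *elt-1* they were *alh-13* (0.01) and *cyn-8* (0.04), and for *elt-2* they were *sra-10* and *clc-3* (0.04 each). For *elt-3* they were *lin-39* and *scl-15* (0.05 each), and for *egl-18* *mup-4* and *tsp-14* (0.06 each). For *end-1* they were *lsm-5* (0.07) and *cpn-1* (0.10), and for *end-3* *mel-32* (0.03) and *mrps-18B* (0.04). With 6 arrays in 2 stages this measure mostly reflects the stage difference.

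The scale bears on the small differences. Centring each array on its ribosomal protein genes shifted the median over all genes by -0.35. Of all genes 3900 then rose and 9686 fell, in place of 5685 and 5339. The share of higher genes among those passing was 28.7% in place of 51.6%. Of the 9 GATA factor genes *elt-2* then rose (0.68), 5 fell, with *elt-6* added, and *med-1*, *elt-3* and *elt-7* did not pass. The falls of *end-1*, *elt-1*, *egl-18* and *end-3* and the rise of *elt-2* passed in all of the other scalings, filters and fits that hold the gene and with each array left out in turn, and a required difference of at least 1 removed *end-3* from these; *elt-1* has no value without probe sets that may match related sequences.

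**Figure D4:**
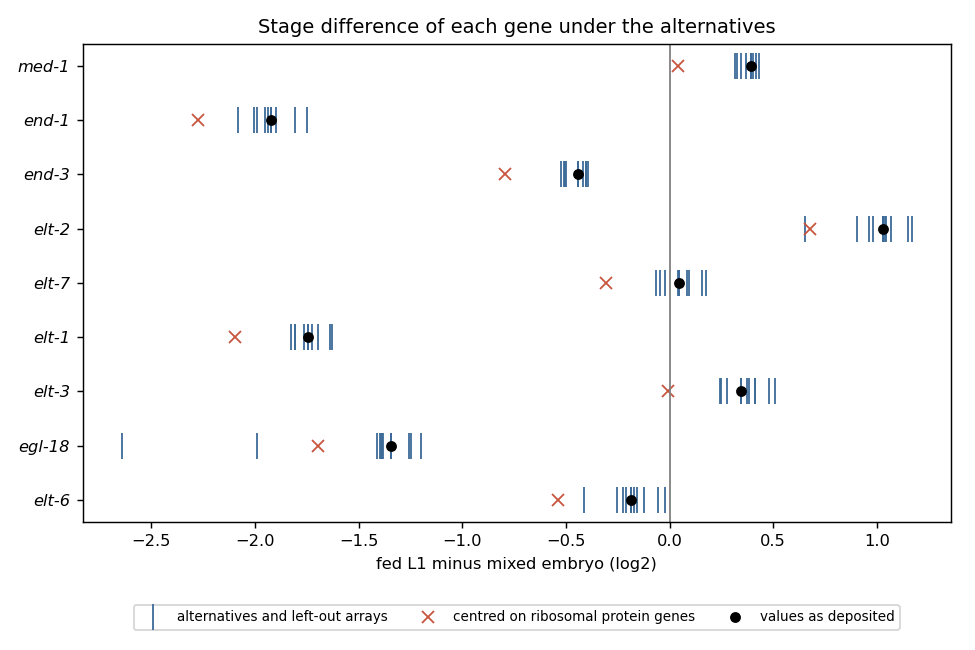
Difference of fed L1 minus mixed embryo (log2, horizontal axis) of each gene; black points are the values as deposited, blue ticks the alternatives and left-out arrays, and red crosses the centring on ribosomal protein genes. The values of *end-1*, *elt-1*, *egl-18*, *end-3* and *elt-2* keep their side of 0, and those of *elt-3* and *elt-7* lie on both sides.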

How the data were processed

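The deposited values are log2 RMA values, 1 per probe set and array. RMA removes background and equalises the distributions of arrays that are normalized together. A general shift in RNA between such arrays would not be seen. RMA is named in the submitters' processing notes; its version, and whether all arrays were normalized together, are not given in the sources used here. The table holds 22625 probe sets, of which 77 are controls and entered no test. Genes were taken from the 20766 that name 1 gene, not from the 887 that name several or the 895 that name none. Groups came from the sample titles, against the source field of the L1 samples, which speaks of embryos. Stages were compared in R 4.3.3 with limma 3.58.1 (lmFit, eBayes, no trend, not robust, 2-sided) over all genes. Lists were described by counts and medians, without a set test. Gene names and chromosomes came from the platform annotation and the WBcel235 gene table.

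The members and lists were chosen with earlier results of these data known, and several list genes had been reported on already. Named were all members, in each list up to 3 of the largest changes each way that passed, and list genes next to the GATA factors in the pathway. *ges-1*, *cpr-6*, *erm-1*, *vit-2*, *vit-6* and other genes named outside this rule were chosen after their values were seen. No pair of arrays was identical. In data simulated for this comparison on 17118 genes with 200 changed, limma recovered 50.7% of changes of 0.5, 86.6% of 1 and 100% of 2, with 8 false calls. In the real comparison 64.4% of genes passed, a far larger share than was changed in the simulation. The Benjamini-Hochberg cutoff depends on that share, so these figures do not give the recovery in the real comparison. No sequences of the genes or probes were used here.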

Additional observations from a re-analysis of the deposited data

How the results depend on the processing

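No paired analysis was possible because L1 replicates carry numbers and embryo replicates letters. With ribosomal protein centring *elt-3* turned to -0.0071 and *elt-7* to -0.31; *elt-7* also turned with median centring (-0.023) and, with arrays left out in turn, ran from -0.063 to 0.16, though it passed nowhere. Ribosomal protein centring also left 1 GATA factor rising in place of 3, as did a minimum difference of 1, and gave 9686 falling genes of all. The same centring left 0 rising genes in the endomesoderm, epidermal regulator and epidermal structure lists and gave 2 falling intestine genes. Quantile normalization, median centring and the mean of probe sets also gave 0 rising epidermal structure genes. Without probe sets that may match related sequences, which left fewer genes, 6 endomesoderm and 3 seam genes fell and 6 intestine genes rose. With the mean of probe sets the pair differences were -1.78 for *egl-18* minus *elt-6* and 0.61 for *elt-2* minus *elt-7*, still with the smallest exact permutation p of 0.1. With arrays left out in turn, rising genes numbered 0 to 1 in the endomesoderm, epidermal structure and seam lists and 1 to 2 among epidermal regulators. Falling genes then numbered 4 to 5 in the seam list and 5 to 6 among epidermal regulators. The cause of these shifts was not tested. Leaving out genes at the foreign control level on all arrays, chosen after the data were seen, removed *med-1* and changed no other GATA factor call. Signal over background limits *med-1*, *end-3* and the other probe sets of *elt-2* and *egl-18*.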
